A study of Homo sapiens with 9 samples.

Results

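The 10 genes described here control the G1 phase of the cell cycle: the D-type cyclins CCND1, CCND2 and CCND3, their kinase partner CDK6, the E-type cyclins CCNE1 and CCNE2, the CIP/KIP inhibitors CDKN1A and CDKN1B, and the INK4 inhibitors CDKN2C and CDKN2D. The 10 were chosen by name, with no measured value in the rule, though earlier results of these data were known. They came from the 58347 gene IDs of the deposited count table. All 10 were found there and all 10 passed the filter on low counts that left 23675 genes. Poly-T selected RNA was sequenced from 9 libraries of K562, a human erythroleukaemia line. The cells of every group, controls included, expressed dCas9 (a Cas9 that binds DNA but does not cut), MS2-Fkbp and SS18-Frb, with EF1a named as the promoter of each. SS18 is a subunit of the BAF chromatin remodelling complex. Fkbp and Frb are held together by rapamycin, which so recruits SS18 to the site of the guide. The groups were a guide RNA (sgRNA) to the HBG1 promoter with DMSO (n = 3), the same guide with 10 nM rapamycin (n = 3), a non-targeting sgRNA with DMSO (n = 1) and a non-targeting sgRNA with rapamycin (n = 2), all for 24 h. Whether the cells were 1 clone or a pool, and whether the replicates were separate cultures, is not given in the sources used here, so p-values measure only the spread between these samples, which may be technical.

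D-type cyclins bind CDK4 and CDK6 in early G1, and E-type cyclins bind CDK2 later. Both kinases phosphorylate RB1 and its relatives, which releases E2F factors and opens the way to S phase. INK4 proteins block CDK4 and CDK6, and CIP/KIP proteins bind cyclin-CDK complexes more widely. The drug also inhibits the growth-control kinase mTORC1, through its own binding to FKBP12, and mTORC1 inhibition is known for slowing passage through G1, in part through cyclin D and CDKN1B protein. K562 cells have lost the CDKN2A and CDKN2B genes. The counts measure RNA and not protein, and in bulk RNA fewer cells in a phase and less RNA per cell cannot be told apart.

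Promoter sequences of the INK4 genes are shown first, because CDKN2D is one of the members whose values did not overlap between treatments with the HBG1 sgRNA or between guides under rapamycin, CCNE1 being another, and CDKN2C is the one member whose promoter windows held a searched word. RefSeq windows (GRCh38.p14) were matched by symbol for 7 of the 10 genes, 12 windows in all, and the 250 bases before each start were searched on both strands. For E2F the first word was TTGGCGC. A second E2F word was TTCCCGC, another was TTGCCGC and the last was TTCGCGC. For FOXO factors the word was GTAAACA. For MYC with MAX it was the E-box, CACGTG. None of these words contains another. Of all 35116 windows searched, 10.9% held an E2F word, 2.98% the FOXO word and 6.34% the E-box. One of the 3 CDKN2C windows held 2 E2F words, each shown with 10 bases on either side and the word in capitals (as its reverse complement in the upstream one), starting 131 and 34 bases before the RefSeq start. GENCODE 29 annotates those bases as an untranslated exon of another CDKN2C transcript. The CDKN2D stretch, on the minus strand, begins 250 bases before the RefSeq start and ends at the last base before the GENCODE gene. It holds none of the searched words, so nothing is in capitals.
CDKN2C, chr1:50968565-50968591: agagcgggagGCGGGAAtgagggcgcg
CDKN2C, chr1:50968662-50968688: gcgcccggccTTCCCGCtcccgcggcg
CDKN2D, chr19:10569060-10569229: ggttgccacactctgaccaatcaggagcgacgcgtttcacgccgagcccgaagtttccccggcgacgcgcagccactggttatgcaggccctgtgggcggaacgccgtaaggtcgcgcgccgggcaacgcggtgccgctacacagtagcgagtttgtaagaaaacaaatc
The other 2 CDKN2C windows each held 1 E-box, and the windows of CCND3, CDK6, CCNE1, CDKN1A and CDKN1B held no searched word. A match is a description of the letters only, and the counts do not show which start is used.

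Library totals ran from 19797409 to 31619671 counts, of which the 10 genes took 0.0524% to 0.0621%. The erythroid marker list was expressed in full (8 of 8 genes tested), with GATA1 at a mean of 220 CPM (counts scaled to a common library size by TMM, a trimmed mean of ratios), and its summed level was 9850 to 19583 CPM with the HBG1 sgRNA and 5203 to 7005 CPM with the non-targeting sgRNA. The gap between guides lay in 1 of the 8, HBE1, a globin gene of the same locus as HBG1 (6597 to 14592 against 2030 to 2979 CPM). The other 7 summed to 3253 to 4991 and 3172 to 4026 CPM, which overlap. The summed lymphoid list stayed at 1.46 to 3.91 CPM, the monocyte list at 14.8 to 29.7 and the fibroblast list at 5.57 to 26.4. Of the epithelial list, KRT8 (446 CPM), KRT18 (203) and EPCAM (42.2) were expressed in these cells while CDH1 was at 0.034 CPM. HBG1 itself rose with rapamycin in cells with its own guide (log2 fold change 2.71, SE 0.28, adjusted p = 7.235e-05 by edgeR's quasi-likelihood test) and gave 0.11 with the non-targeting sgRNA (SE 0.39, adjusted p = 0.940). Under rapamycin it was lower with the HBG1 sgRNA than with the non-targeting one (log2 -2.21, SE 0.29, adjusted p = 0.00499). HBG1 and HBG2 are near-identical copies whose reads the counting may have divided. The replicate 1 libraries with the HBG1 sgRNA stood apart: their counts gave a chi-square per gene of 15.4 to 17.1 against replicates 2 and 3, which gave 4.64 (DMSO) and 7.56 (rapamycin) against each other.

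Per length of exon, CCND3 was the most abundant of the 10 transcripts and CCND1 the least. Exon length here is all annotated exon bases of a gene, merged over its transcripts, so the order depends on that annotation. CCND3 averaged 40.4 ± 3.21 CPM per kilobase over the 9 libraries (SD, n = 9). It was followed by CDKN2C (22.2 ± 1.07), CCNE1 (12.4 ± 1.13), CDK6 (11.95 ± 1.54) and CDKN1B (9.56 ± 0.332). Below these came CCNE2 (5.69 ± 0.444), CDKN1A (5.42 ± 0.921), CDKN2D (2.91 ± 0.709), CCND2 (2.02 ± 0.319) and CCND1 (1.70 ± 0.468 CPM per kilobase). The ranges of neighbours in this order did not overlap between CCND3 and CDKN2C, between CDKN2C and CCNE1, or between CDKN1B and CCNE2. Every other pair of neighbours overlapped. Of the partners outside the 10 genes, CDK4 lay above CCND3 at a mean of 56.6 CPM per kilobase, and CDK2 lay below CCND3 at 24.7. CDKN2A and CDKN2B, the INK4 genes that K562 has lost, had 0 counts in all 9 libraries. A count of 0 allows up to 3 counts, or 0.0971 to 0.155 CPM depending on the library.

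**Figure D1:**
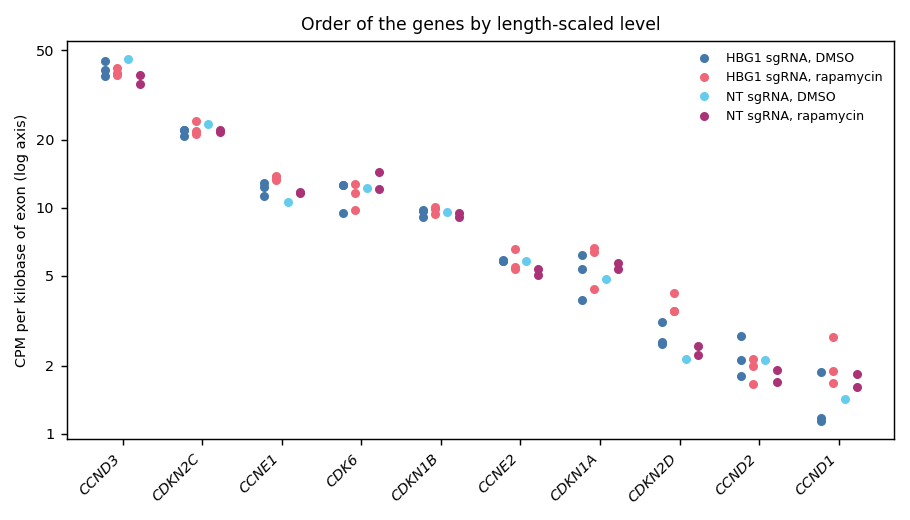
Level of each gene in CPM per kilobase of exon (log axis), 1 point per library, coloured by guide and treatment and ordered by mean. CCND3 lies above every other gene in all 9 libraries, and CCND1 and CCND2 lie at the bottom with overlapping ranges.

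The 10 genes also differed in how much they varied. CDKN1B, which encodes p27, was the steadiest: its highest library was 1.11 times its lowest and its coefficient of variation was 3.47%. CDKN2C (1.16-fold), CCND3 (1.29-fold) and both E-type cyclins (1.30-fold each) stayed in a narrow band. CDK6 spanned 1.53-fold, CCND2 1.63-fold, CDKN1A 1.69-fold, CDKN2D 1.97-fold and CCND1 2.36-fold, the last with a coefficient of variation of 27.5%. CCND1 and CDKN2D were also the genes with the fewest reads, down to 115 and 75 counts in 1 library, against 4361 to 7098 for CCND3.

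**Figure D2:**
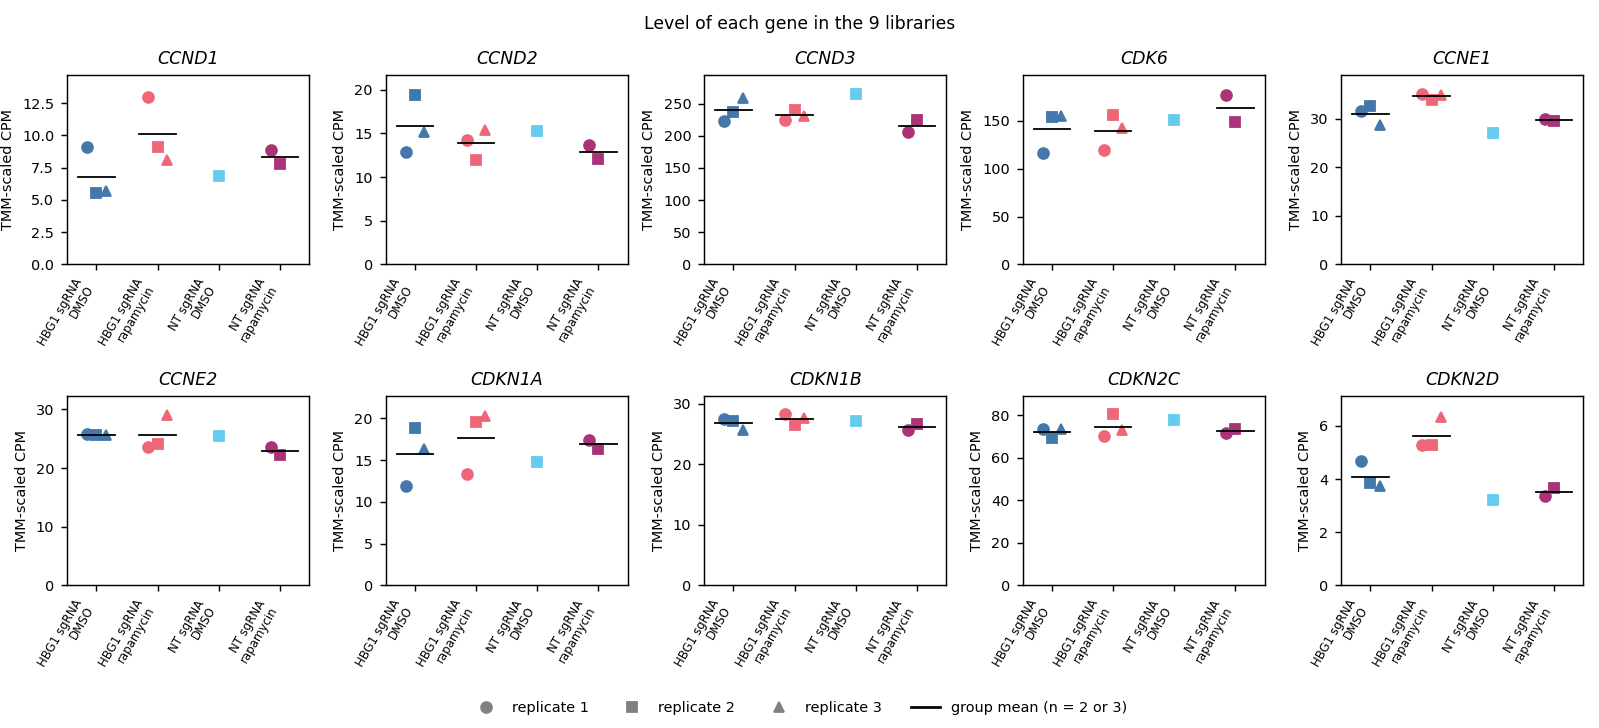
TMM-scaled CPM of each gene in every library, 1 panel per gene with its axis from 0, by guide and treatment; the marker shape gives the replicate number and the bar the group mean. CCND1 replicate 1 (circle) is the highest library of both groups with the HBG1 sgRNA. Every CDKN2D value with the HBG1 sgRNA lies above every value with the non-targeting (NT) sgRNA, the closest being 3.74 against 3.68 CPM.

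Across the 10 genes, rapamycin with the HBG1 sgRNA moved no transcript past the threshold of an adjusted p of 0.05 (edgeR's quasi-likelihood test, Benjamini-Hochberg over all 23675 genes). DESeq2 and limma-voom called 0 of 10 as well, and 2 of 10 had an unadjusted p under 0.05 by edgeR. Over all genes tested 6.80% were called, 650 higher and 959 lower (819 and 673 with upper quartile scaling), and 20.8% had an unadjusted p under 0.05. The median log2 fold change was 0.04 over the 10 genes and 0.02 over all genes. Arms without overlap were found for 2 of 10 genes, CCNE1 and CDKN2D, against 25.3% of all genes. CCND1 changed the outcome of this count: in a fit that pairs the libraries by replicate number it was called higher, as given below.

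Among the D-type cyclins, CCND3 (chromosome 6, 41934933 to 42050357, GRCh38) carried most of the RNA. In DMSO with the HBG1 sgRNA its libraries held 224, 237 and 259 CPM. With rapamycin they held 225, 241 and 231 CPM, inside the DMSO range. The log2 fold change was -0.05 (SE 0.07, adjusted p = 0.776 by edgeR), with a 95% interval of 0.867 to 1.08-fold. CCND3 made up 91.9% ± 1.04 of the length-scaled RNA of the D-type cyclins in DMSO and 90.8% ± 1.47 with rapamycin (SD, n = 3 each).

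CCND1 (chromosome 11, 69641087 to 69654474), the D-type cyclin best known as a target of growth-factor signalling, was scarce. Its DMSO libraries held 9.07, 5.51 and 5.66 CPM. With rapamycin and the same guide they held 13.0, 9.12 and 8.12 CPM. The replicate 1 library was the high one in both arms, 1.62 times the mean of the other two in DMSO and 1.51 times in rapamycin, and the arms overlapped through it. Without pairing the log2 fold change was 0.56 (SE 0.22, 95% interval 1.08 to 2.03-fold, unadjusted p = 0.0190, adjusted p = 0.138 by edgeR). Within replicate numbers the log2 ratio was 0.52, 0.73 and 0.52, higher with rapamycin in 3 of 3 pairs. In the fit with the replicate number as a block CCND1 rose by 0.59 on the log2 scale (SE 0.15, adjusted p = 0.00744 by edgeR). It was the 1 member of 10 called there, against 14.9% of all genes. Across the other alternatives its adjusted p ran from 0.0237 to 0.393. It was also called without DMSO replicate 1 (0.84, adjusted p = 0.0252), without both replicate 1 libraries (0.63, adjusted p = 0.0482) and with no filter on low counts (0.57, adjusted p = 0.0416). Without rapamycin replicate 1 the fold change was smallest, 0.34 (adjusted p = 0.393). CCND1 shares 497 exonic bases (10.3% of its exon length) with LTO1 on the opposite strand, and no strand setting is stated for the counting. LTO1 gave 0.00 on the log2 scale (SE 0.10, adjusted p = 0.998 by edgeR).

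CCND2 (chromosome 12, 4273772 to 4305350), the third D-type cyclin, held 12.9, 19.4 and 15.2 CPM in DMSO and 14.2, 11.9 and 15.4 CPM with rapamycin. The arms overlapped, and the spread came mainly from replicate 2, whose pair gave a log2 ratio of -0.70 while the others gave 0.15 and 0.02. CCND2 gave -0.19 on the log2 scale (SE 0.16, adjusted p = 0.546 by edgeR).

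CDK6 (chromosome 7, 92604921 to 92836594), the kinase that D-type cyclins activate alongside CDK4, held 116, 154 and 155 CPM in DMSO and 119, 156 and 142 CPM with rapamycin. Replicate 1 was the low library in both arms, at 0.751 and 0.802 of the mean of the other two, and the arms covered nearly the same range. Rapamycin over DMSO gave -0.03 on the log2 scale (SE 0.12, adjusted p = 0.934 by edgeR), with a 95% interval of 0.829 to 1.16-fold, and its sign turned under upper quartile scaling (0.01). CDK6 values with the non-targeting sgRNA were 150 CPM in DMSO and 177 and 149 CPM with rapamycin.

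Of the E-type cyclins, CCNE1 (chromosome 19, 29811898 to 29824308) was the one whose arms separated with the HBG1 sgRNA. Its DMSO libraries held 31.56, 32.74 and 28.73 CPM and its rapamycin libraries 35.20, 33.92 and 34.98 CPM, so every rapamycin value lay above every DMSO value. The difference was small, 0.16 on the log2 scale (SE 0.09, unadjusted p = 0.0984, adjusted p = 0.346 by edgeR). The 3 pairs gave log2 ratios of 0.16, 0.05 and 0.28. CCNE2 (chromosome 8, 94879770 to 94896678), the second E-type cyclin, held 25.8, 25.7 and 25.6 CPM in DMSO and 23.6, 24.1 and 29.1 CPM with rapamycin. Its DMSO libraries agreed closely and its rapamycin libraries lay on both sides of them. The log2 fold change was -0.00 (SE 0.11, adjusted p = 0.996 by edgeR), and its sign turned with upper quartile scaling (0.04). CCNE2 shares 1629 exonic bases (37.0% of its exon length) with INTS8 on the opposite strand. Part of its counts may be reads of that gene, or reads of the shared bases may have been left uncounted. INTS8 gave a log2 fold change of 0.03 (adjusted p = 0.895 by edgeR). By length-scaled level CCNE1 was 67.5% ± 1.46 of the E-type cyclin RNA in DMSO and 70.1% ± 2.35 with rapamycin (SD, n = 3 each).

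CDKN1A (chromosome 6, 36676460 to 36687339) encodes p21, an inhibitor induced after DNA damage. It held 11.96, 18.85 and 16.33 CPM in DMSO and 13.32, 19.52 and 20.24 CPM with rapamycin. Replicate 1 was the low library in both arms, at 0.680 and 0.670 of the mean of the other two, and the arms overlapped. The log2 fold change was 0.18 (SE 0.17, adjusted p = 0.614 by edgeR), with ratios of 0.16, 0.05 and 0.31 in the 3 pairs. CDKN1B (chromosome 12, 12715058 to 12722371), whose protein p27 accumulates in cells leaving the cycle, held 27.5, 27.1 and 25.6 CPM in DMSO and 28.3, 26.4 and 27.7 CPM with rapamycin. The arms overlapped throughout. The log2 fold change of CDKN1B was 0.04 (SE 0.09, adjusted p = 0.868 by edgeR), with a 95% interval of 0.894 to 1.18-fold.

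Of the INK4 inhibitors CDKN2C was abundant and CDKN2D scarce. CDKN2C (chromosome 1, 50960745 to 50974633), which encodes p18, held 73.4, 69.2 and 73.6 CPM in DMSO and 70.1, 80.6 and 72.9 CPM with rapamycin. Its arms overlapped, and the log2 fold change was 0.05 (SE 0.08, 95% interval 0.921 to 1.16-fold, adjusted p = 0.787 by edgeR). CDKN2D (chromosome 19, 10566462 to 10569059, minus strand), which encodes p19, held 4.70, 3.84 and 3.74 CPM in DMSO and 5.26, 5.27 and 6.33 CPM with rapamycin. Every rapamycin library lay above every DMSO library, and the pairs gave log2 ratios of 0.16, 0.46 and 0.76. CDKN2D gave a log2 fold change of 0.46 (SE 0.20, 95% interval 1.03 to 1.84-fold, unadjusted p = 0.0350), with an adjusted p of 0.196 by edgeR, and with the replicate block 0.46 (adjusted p = 0.126). Its adjusted p ran from 0.0841 to 0.468 over the alternatives and passed in none. CDKN2D made up 11.1% ± 1.17 of the length-scaled RNA of the pair CDKN2C and CDKN2D in DMSO and 14.3% ± 1.74 with rapamycin (SD, n = 3 each).

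**Figure D3:**
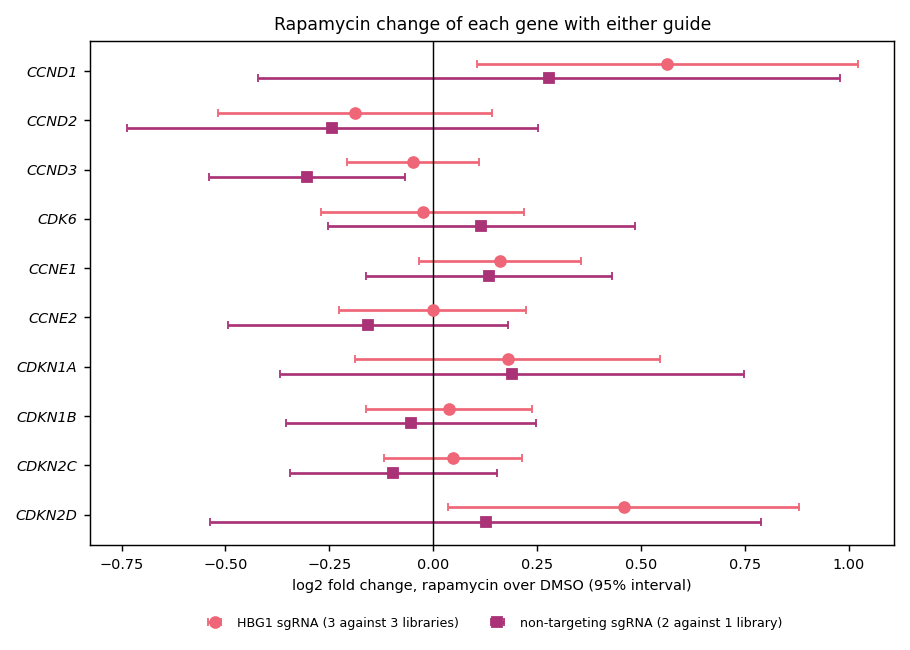
Log2 fold change of each gene, rapamycin over DMSO, with its 95% interval from edgeR's quasi-likelihood fit; circles are the HBG1 sgRNA (3 against 3 libraries) and squares the non-targeting sgRNA (2 against 1). The unadjusted intervals of CCND1 and CDKN2D with the HBG1 sgRNA and of CCND3 with the non-targeting sgRNA leave out 0, and no gene passed the adjusted threshold.

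The pairing itself was a property of the libraries with the HBG1 sgRNA, where same-numbered DMSO and rapamycin libraries deviated together from their group means, although numbers 2 and 3 deviated together about as much as each did with itself. CCND1, CCNE1, CDKN1A and CDKN2D were higher with rapamycin in 3 of 3 pairs, and no member was lower in 3 of 3. The share of all genes with 3 pairs in the same direction is not given here, so this describes the members only. The CCND1 ratios lay between 0.52 and 0.73 and the CDKN2D ratios between 0.16 and 0.76.

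**Figure D4:**
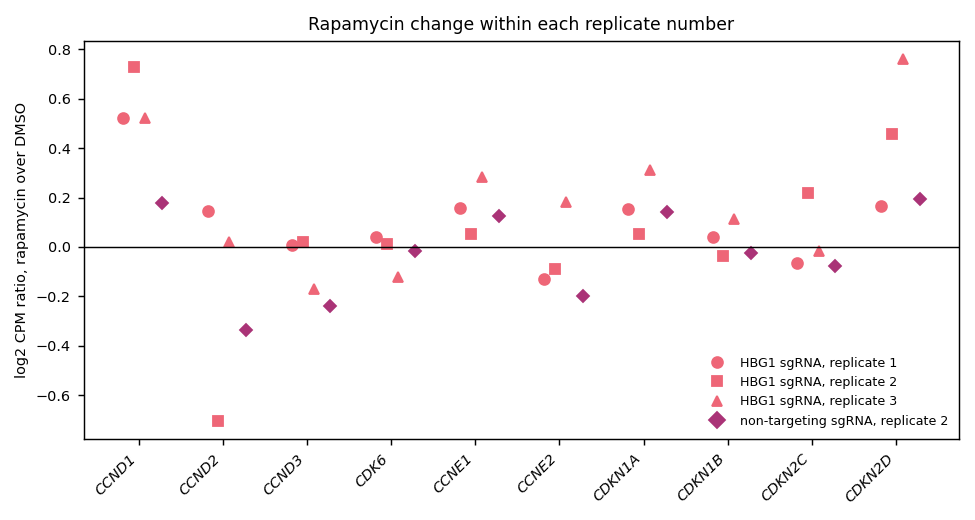
Log2 ratio of rapamycin to DMSO CPM within each replicate number, for the 3 pairs with the HBG1 sgRNA and the 1 pair with the non-targeting sgRNA (diamonds). CCND1 lies at 0.52 to 0.73 in the HBG1 sgRNA pairs and at 0.18 in the non-targeting pair, while CCND2 ranges from -0.70 to 0.15.

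The libraries with the non-targeting sgRNA ask whether rapamycin moves these genes without a guide to HBG1. These cells also expressed the Fkbp and Frb fusions, so the drug alone and its joining of the fusions cannot be told apart. The DMSO arm is a single library, assumed to vary like the other groups. None of the 10 genes was called (edgeR; 0.891% of all genes were, and 1 of 10 members against 14.1% of all genes had an unadjusted p under 0.05). That member was CCND3, at 265 CPM in DMSO and 205 and 225 CPM with rapamycin. Both rapamycin values lay below the DMSO value, and the log2 fold change was -0.30 (SE 0.11, 95% interval 0.688 to 0.954-fold, adjusted p = 0.218 by edgeR). CCND1 stood at 6.87 CPM in DMSO and 8.88 and 7.78 CPM with rapamycin, which is 0.28 on the log2 scale (SE 0.33, adjusted p = 0.777 by edgeR). The 95% interval, 0.746 to 1.97-fold, holds both no change and the value seen with the HBG1 sgRNA. CDKN2D stood at 3.22 CPM in DMSO and 3.35 and 3.68 CPM with rapamycin (log2 0.13, SE 0.31, adjusted p = 0.913). The others gave log2 fold changes between -0.24 (CCND2) and 0.19 (CDKN1A). With 1 DMSO library, the arms did not overlap for any of the 10 genes except CDK6, so the separation of CCND3 was not particular to it. A single library in an arm makes such separation common, and the share of all genes without overlap in this contrast is not given here.

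Whether rapamycin acted differently with either guide was tested as an interaction. It called none of the 10 genes (edgeR; 0.00422% of all genes were called), and none of the 10 had an unadjusted p under 0.05, against 2.86% of all genes; DESeq2 and limma-voom also called none of the 10. For CCND1 the changes differed by 0.29 (SE 0.39) and for CDKN2D by 0.33 (SE 0.37). CCND3 had the smallest p, with a difference of 0.26 (SE 0.13, 95% interval 0.980 to 1.45-fold, unadjusted p = 0.0756, adjusted p = 1.00 by edgeR). Intervals of this width do not show that the genes responded alike with both guides.

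Between the guides under rapamycin, CDKN2D differed most. All 6 libraries with the HBG1 sgRNA, 3.74 to 6.33 CPM over both treatments, lay above the 3 libraries with the non-targeting sgRNA, 3.22 to 3.68 CPM. The nearest were 3.74 CPM (76 counts, HBG1 sgRNA DMSO replicate 3) and 3.68 CPM (81 counts, non-targeting rapamycin replicate 2). The share of all genes separated in this way over both treatments is not given here. Under rapamycin the log2 difference was 0.68 (SE 0.23, 95% interval 1.15 to 2.25-fold, unadjusted p = 0.00900, adjusted p = 0.773 by edgeR), so it failed the correction. Over the alternatives its adjusted p ran from 0.571 to 1. Under DMSO, where 3 libraries stand against 1 and no test was made, the difference was 0.35. Of the erythroid markers HBE1 was higher in the same 6 libraries, while the sum of the other 7 overlapped between guides, as given above. The part of HBE1 in the difference was not tested. CCNE1 gave 0.22 (SE 0.10, unadjusted p = 0.0477, adjusted p = 0.778 by edgeR), with 33.9 to 35.2 CPM against 29.6 and 30.0 CPM. No member was called in this comparison, in which 0.0296% of all genes were, by edgeR or by the other tools run, and 2 of 10 had an unadjusted p under 0.05 against 6.27% of all genes. Arms without overlap were found for 4 of 10 members (CCND3, CCNE1, CCNE2 and CDKN2D) against 22.6% of all genes.

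The rest of the G1 machinery was described through 6 lists of other genes, in the contrast of rapamycin with DMSO under the HBG1 sgRNA. Called genes numbered 0 higher and 2 lower of 8 CDK partners and activators, 0 of 2 other CDK inhibitors, 0 higher and 1 lower of 18 pocket protein, E2F and DREAM genes, and 1 higher and 2 lower of 16 turnover genes. They numbered 0 higher and 2 lower of 20 E2F target genes of S phase, and 2 higher and 3 lower of 16 upstream regulators. Over all genes 2.75% were called higher and 4.05% lower. With the replicate block the calls became 0 higher and 4 lower of the 18 pocket protein, E2F and DREAM genes. They became 1 higher and 4 lower of the 16 turnover genes, and 5 higher and 4 lower of the 16 upstream regulators. In that fit 6.27% of all genes were called higher and 8.64% lower. List medians ran from -0.17 (CDK partners) through -0.14 (E2F targets) and -0.12 (turnover) to 0.08 (upstream regulators) and 0.28 (the 2 other inhibitors), beside 0.02 over all genes.

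Among the partners of the cyclins CDC25A and CDC37 fell. CDC25A, the phosphatase that activates CDK2, held 66.2, 76.7 and 69.2 CPM in DMSO and 45.5, 54.5 and 55.4 CPM with rapamycin. The arms did not overlap, and it fell by 0.45 on the log2 scale (SE 0.09, adjusted p = 0.00946 by edgeR; 0.0662 without DMSO replicate 2). With the non-targeting sgRNA the value was -0.39 (SE 0.14, adjusted p = 0.201). CDC37, the kinase chaperone that loads CDK4 onto HSP90, fell from 252 ± 8.72 to 206 ± 13.7 CPM (SD, n = 3 each; log2 -0.29, SE 0.07, adjusted p = 0.0211 by edgeR) and also with the non-targeting sgRNA (-0.50, SE 0.10, adjusted p = 0.0337). The first of these calls was lost without DMSO replicate 2, rapamycin replicate 2 or rapamycin replicate 3 (adjusted p up to 0.0936). CDK4 gave -0.20 (SE 0.07, adjusted p = 0.119), and with the replicate block it fell by 0.20 (adjusted p = 0.0267 by edgeR). CDK2 gave -0.10 (SE 0.08, adjusted p = 0.509). With the block 4 of the 8 were lower, CCNA2 being the other one, against 8.64% of all genes called lower in that fit. Of the remaining CDK inhibitors, CDKN1C, the CIP/KIP protein p57, gave 0.24 (SE 0.13, adjusted p = 0.330). CDKN3, a phosphatase that acts on CDK2, gave 0.33 (SE 0.12, adjusted p = 0.108), and with the block it rose by 0.32 (adjusted p = 0.0372 by edgeR).

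SKP2, the ubiquitin ligase subunit that targets p27 for degradation, fell in all 3 pairs. It held 63.6, 60.5 and 61.0 CPM in DMSO and 43.6, 46.4 and 47.3 CPM with rapamycin, with no overlap between the arms. On the log2 scale it fell by 0.43 (SE 0.08, adjusted p = 0.00396 by edgeR), and the call held in every alternative run. With the non-targeting sgRNA SKP2 gave -0.42 (SE 0.12, adjusted p = 0.107). CUL1, the scaffold of the same ligase, fell by 0.28 (SE 0.08, adjusted p = 0.0354 by edgeR), and RNF123, a subunit of another p27 ligase, rose by 0.28 (SE 0.07, adjusted p = 0.0332). Both calls were fragile. CUL1 kept its call only without DMSO replicate 1 or the non-targeting DMSO library, and RNF123 only without rapamycin replicate 1 or the non-targeting DMSO library, among 9 fits that each left out 1 library (adjusted p up to 0.154 and 0.133). The RNA of CDKN1B, the gene of the shared target of these ligases, did not pass, as given above. The p27 protein, on which the ligases act, was not measured.

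On the E2F side, E2F4, a repressive E2F, fell from 146 ± 9.19 to 114 ± 6.38 CPM (SD, n = 3 each; log2 -0.37, SE 0.08, adjusted p = 0.0129 by edgeR), with an adjusted p of 0.0723 without rapamycin replicate 3. E2F4 was also lower with the non-targeting sgRNA, by -0.45 on the log2 scale (SE 0.12). It was not called there, where the DMSO arm is 1 library. RB1 gave 0.12 with the HBG1 sgRNA (SE 0.11, adjusted p = 0.589 by edgeR). MCM3 and MCM4, subunits of the replicative helicase, fell by 0.29 (SE 0.07, adjusted p = 0.0257 by edgeR) and 0.25 (SE 0.07, adjusted p = 0.0316); neither passed with upper quartile scaling (adjusted p = 0.0564 and 0.0786). MCM3 lost its call without any one of the 3 DMSO libraries or rapamycin replicate 2 or 3, and MCM4 without any one of the 3 DMSO libraries, rapamycin replicate 3 or either non-targeting rapamycin library (adjusted p up to 0.0883 and 0.132). Of the 20 E2F targets 16 had a negative fold change, beside a median of 0.02 over all genes. Neither the share of all genes with a negative value nor the count under other scaling is given here. With the replicate block 8 of the 20 fell and 2, TK1 among them, rose, against 8.64% of all genes called lower and 6.27% called higher.

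FOXO4 and FOXO3 were the 2 genes that rose without the replicate block among the 16 regulators upstream of the 10 genes. FOXO4, a forkhead factor known to activate CDKN1B, held 16.3, 16.9 and 16.6 CPM in DMSO and 25.7, 26.1 and 24.3 CPM with rapamycin. The arms stood far apart, the log2 fold change was 0.61 (SE 0.10, adjusted p = 0.00199 by edgeR), and the call held in every alternative run. With the non-targeting sgRNA FOXO4 rose as well, by 0.95 (SE 0.16, adjusted p = 0.0112). FOXO3, its close relative, rose from 44.5 ± 2.57 to 59.8 ± 3.10 CPM (SD, n = 3 each; log2 0.42, SE 0.09, adjusted p = 0.00901 by edgeR) and by 0.80 with the non-targeting sgRNA (SE 0.14, adjusted p = 0.0137). The 0.42 was not called without DMSO replicate 2 (adjusted p = 0.0619). CEBPB, a basic leucine zipper factor, fell by 0.50 (SE 0.12, adjusted p = 0.0179 by edgeR) and by 0.80 with the non-targeting sgRNA (SE 0.17, adjusted p = 0.0388). The first CEBPB call was lost without DMSO replicate 1 or 3 or rapamycin replicate 2 or 3 (adjusted p up to 0.0962). MAX and ATF4, named here after their values were seen, were the other 2 that fell. With the replicate block MYC (adjusted p = 0.0299 by edgeR), GFI1B (0.0137) and BCL6 (0.0203) rose as well, and DDIT3 fell (0.000446). The non-targeting calls of FOXO4 (adjusted p up to 0.0903), CEBPB (up to 0.261) and CDC37 (up to 0.186) were each lost without either non-targeting rapamycin library, and that of FOXO3 without replicate 1 (0.132). Those of CEBPB and CDC37 were also lost with upper quartile scaling (0.0591 and 0.0568) and without HBG1 sgRNA DMSO replicate 3, and that of CDC37 without HBG1 sgRNA DMSO replicate 2 or rapamycin replicate 3.

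**Figure D5:**
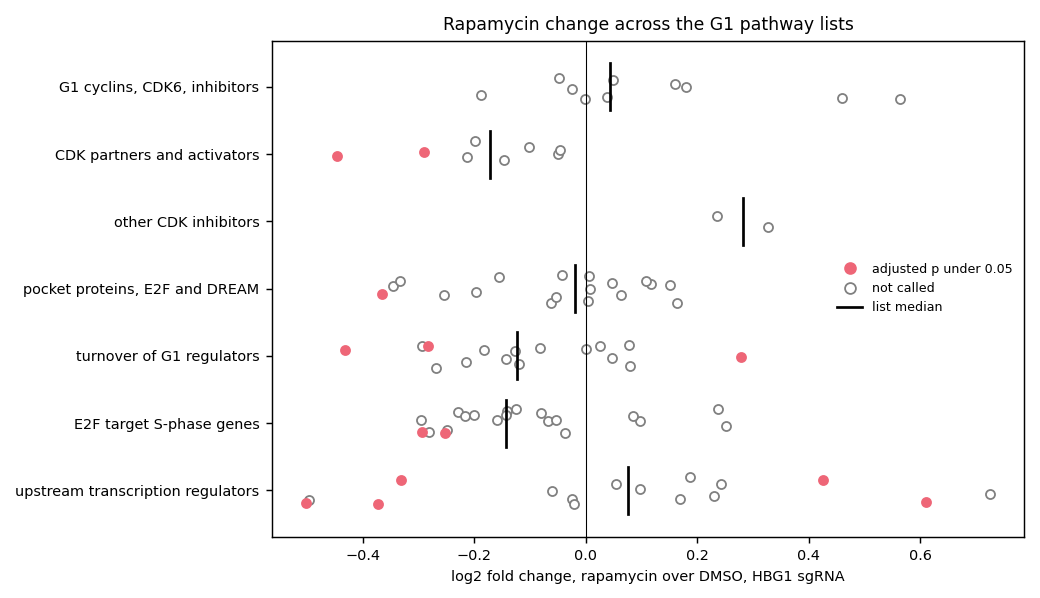
Log2 fold change, rapamycin over DMSO with the HBG1 sgRNA, of every tested gene of each list (points; filled where the adjusted p was under 0.05) with the list median (bar). The top row holds the 10 G1 genes with no filled point; the filled points at the left of the next rows include CDC25A at -0.45 and SKP2 at -0.43, and FOXO4 lies at 0.61 in the bottom row.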

How the data were processed

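RNA of 9 K562 libraries was analysed from 1 table that the authors deposited, which holds raw read counts (whole numbers) by Ensembl gene ID. The submitters' processing notes name STAR 2.7.3a, featureCounts, Subread 2.0.0, R 4.1.2, limma 3.34.9 and edgeR 3.24.0 and the builds GRCh38 and hg38, without roles. The annotation release, strand setting and treatment of multi-mapping reads are not given in the sources used here. GENCODE 29 gave symbols and exon lengths for 58039 of 58347 IDs (99.47%). Sample titles gave the groups and the replicate numbers.

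Counts were filtered with edgeR 4.0.16 (R 4.3.3; filterByExpr by group, minimum count 10), scaled by TMM and fitted with the quasi-likelihood test over all 9 libraries, 1 mean per group. The threshold for a call was an adjusted p of 0.05. SEs are the log2 fold change over the square root of F; 95% intervals use the fit's degrees of freedom. Length-scaled levels divide CPM by exon length. The fit was tested on simulated counts. Other tools were DESeq2 1.42.0 and limma-voom 3.58.1.

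Same-numbered libraries with the HBG1 sgRNA deviated together from their group means (correlations 0.553, 0.278 and 0.231 over 11498 genes), so the numbers were taken to pair them. Differently numbered libraries 2 and 3 gave 0.258 and 0.194, close to the pairs 2 and 3 themselves, while those with 1 gave -0.407 to -0.324, so the check sets replicate 1 apart more than it tells 2 from 3. Between guides under rapamycin the correlations were -0.0676 and -0.0687. The numbers come from the titles, which do not say what they share.

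The 10 genes, lists and tests were chosen with earlier results of these data known. By rule, the genes named from the members and lists are the members and up to 3 called genes per list with the smallest adjusted p. CDK2, CDK4, CDKN1C, CDKN2A, CDKN2B, CDKN3 and RB1 are named whatever their values. Outside the rule, CCNA2, TK1, MYC, GFI1B, BCL6 and DDIT3 are named for their calls with the replicate block. MAX and ATF4 are also outside it, named after their values were seen. Some genes and 1 list of the original selection are not reported here. Genes with a like pattern were to be named for called members; none was called.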

Additional observations from a re-analysis of the deposited data

How the results depend on the processing

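With the HBG1 sgRNA the number of genes called for rapamycin, 1609, was 3530 with the replicate block that the pairing allows, 3263 in an additive model and 2598 with the block on pairs 2 and 3, an alternative chosen after seeing the data, and ran from 696 to 1732 when single libraries were left out (696 without DMSO replicate 2, 764 without DMSO replicate 3, 710 without rapamycin replicate 3). The number of the 10 genes called, 0, was 1 (CCND1) with no filter, with either block and without both replicate 1 libraries, the latter also chosen after seeing the data, and 0 to 1 when single libraries were left out; the block changed no other member's call. With the non-targeting sgRNA 211 genes were called, 668 with no filter, 660 with DESeq2 and 0 to 514 without single libraries (0 and 20 without non-targeting rapamycin replicate 1 and 2, 514 without HBG1 sgRNA rapamycin replicate 1). Between guides under rapamycin 7 were called, 91 with no filter, 13 with DESeq2 and in the additive model, 26 with a replicate block on 4 libraries whose numbers do not pair, and 3 to 8 without single libraries. The interaction called 1 gene, 8 with no filter, 0 with DESeq2 and with a stricter filter (mean log2 CPM 1 or more), 3 with limma-voom, 5 with the block within each guide and 0 to 4 without single libraries.

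The sign turned for the following values, none of which was called. For rapamycin with the HBG1 sgRNA, CDK6 gave 0.0135 with upper quartile scaling and 0.0178 in the additive model. CCNE2 gave 0.0363 with upper quartile scaling, 0.000533 with no filter, 0.0191 with the stricter filter, 0.00757 with limma-voom, 0.0597 without both replicate 1 libraries and 0.0476 with the block on pairs 2 and 3. For the interaction CDKN1A gave 0.0268 with limma-voom and 0.0319 with the block; between guides CDKN2C gave -0.0219 in the additive model and CDKN1A -0.0625 with the block; with the non-targeting sgRNA CDK2 gave 0.0252 with upper quartile scaling and 0.00629 with the stricter filter. Leaving out single libraries gave, with the HBG1 sgRNA, -0.0964 to 0.0099 for CCND3, -0.112 to 0.054 for CCNE2, -0.151 to 0.0721 for CDK6 and -0.0159 to 0.089 for CDKN2C. With the non-targeting sgRNA it gave -0.0178 to 0.238 for CDK6, between guides -0.045 to 0.236 for CDKN1A and -0.0313 to 0.0749 for CDKN2C, and for the interaction -0.0792 to 0.232 for CCND2, -0.0195 to 0.0678 for CCNE1 and -0.178 to 0.154 for CDKN1A. The cause of these shifts was not tested. CCND1 and CDKN2D, at 75 to 280 counts per library, had the widest intervals of the 10 genes. Leaving out the single non-targeting DMSO library leaves no fit for that contrast or the interaction.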
